A study of Mus musculus with 20 samples.

Results

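The Myc and Max network was described here in tumor cells of prostate cancer bone metastasis through 10 genes chosen by symbol from textbook knowledge of the network, among the 17104 genes that the 3 deposited expression tables list. The genes are Myc, Mycn, Mycl, Max, Mxd1, Mxd3, Mxd4, Mxi1, Mnt and Mlx. Of these, 8 reached a mean of at least 1 FPKM and were tested, while Mycn and Mycl stayed below 0.1 FPKM wherever they were listed.

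All groups shared the same tumor and host. MycCaP cells come from a prostate tumor of the HiMyc mouse, in which a human MYC transgene is driven by a modified probasin promoter that responds to androgen, and MycCaP-Bo is the single line obtained from them by 3 rounds of selection for bone homing. The cells carried a lentiviral luciferase and infrared fluorescent protein (iRFP) marker and were injected into the heart of FVB/N male mice of 4 to 6 weeks. Naive tumors received vehicle. Resist tumors received the anti-androgen enzalutamide by gavage every day at 30 mg/kg for 18 days. Resist-Mac tumors received the same enzalutamide and clodronate liposomes, which deplete phagocytes, at 1 mg per mouse in the last 4 days only, and a further group, called Naive-Mac here, received vehicle and clodronate liposomes for a time not given in the sources used here. Each group had 5 libraries of poly(A) RNA, each from CD45- iRFP+ cells sorted from 3 pooled mice. The labels place naive and Resist libraries in batch 1, Resist-Mac libraries in batch 2 and Naive-Mac libraries in batch 3, so batch and condition cannot be told apart in any comparison except Resist vs. Naive. Expression is in FPKM, the number of sequenced fragments scaled to transcript length and to all mapped fragments of the library. The deposited tables used here hold the mouse genes, the human transgene was not analysed, and whether its reads were counted as mouse Myc was not tested.

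Myc is a transcription factor that binds DNA only as a dimer with Max, mostly at the E-box hexamer CACGTG, and there raises the transcription of genes of growth, ribosome production and metabolism. Mxd1, Mxd3, Mxd4, Mxi1 and Mnt compete for Max and for the same sites, and their dimers recruit the Sin3 and histone deacetylase corepressor. Mlx is a Max-like protein that dimerizes with the glucose-responsive Mondo proteins and with some of the Mxd proteins.

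The E-box is also found at or before the start site of some of the network's own genes. RefSeq promoters (250 bases before to 50 after a start, build GRCm38.p6) were at hand for 9 of the 10 members. Both strands were searched for CACGTG, which reads the same on both, and it was in the promoters of 4 of these 9 genes, against 8.09% of all 27025 genes in the table. The 4 windows are shown because they hold the site that Myc and Max dimers read, with the hexamer in capitals and 20 bases on each side, 5′ to 3′ on the strand of the gene.
Max (chr12:76962226-76962271, minus strand, hexamer across the start, from 3 bases before it): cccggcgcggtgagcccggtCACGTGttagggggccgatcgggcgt
Mxd4 (chr5:34187904-34187949, minus strand, 219 bases before the start): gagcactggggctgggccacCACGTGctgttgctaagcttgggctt
Mnt (chr11:74830781-74830826, plus strand, 123 bases before the start): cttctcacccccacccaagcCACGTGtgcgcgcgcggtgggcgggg
Mlx (chr11:101087230-101087275, plus strand, 40 bases before the start): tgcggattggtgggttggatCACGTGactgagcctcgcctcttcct
A match of 6 letters is a description of these windows and not evidence of binding. The 4 genes did not share a pattern over the groups. Relative to naive tumors Mnt was called lower and Mlx higher in Naive-Mac tumors, and Max and Mxd4 were not called there. Of all genes tested, 59.7% were called in that comparison. Which of the 4 were called depended on the setting. With the length and GC correction described below, Mnt and Mlx lost their calls, and Mxd4 was called higher in Naive-Mac tumors.

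Of the 8 members tested, 0 were called between enzalutamide-resistant and naive tumors. In this comparison, Resist vs. Naive, 6.35% of all genes tested were called, and for 8 genes a count of 0 is near that background. A call required a Benjamini-Hochberg adjusted p under 0.05 in limma on log2(FPKM + 1) and a fold change over 1.5, and the 6.35% were made up of 5.25% with more and 1.11% with less RNA in Resist. Mxd3 was higher and Mxi1 lower at an adjusted p under 0.05, without reaching the fold limit, and 18.9% of all genes passed that p at any fold. In contrast, Myc RNA in Naive-Mac tumors was 20.5-fold below that of naive and 17.6-fold below that of Resist-Mac tumors. Mxd1 and Mnt were called lower and Mxd3 higher in Naive-Mac tumors as well. The background was 59.7% of all genes called against naive and 46.2% against Resist-Mac tumors. With the length and GC correction described below, Mxd1 and Mnt lost their calls in both comparisons, and Myc and Mxd3 kept theirs. Fold changes from the log2(FPKM + 1) scale understate the change of genes with low values. The p-values rest on the spread between libraries, each of 3 pooled mice.

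Myc was among the most abundant transcripts of naive and Resist tumors. It measured 142, 176, 169, 151 and 170 FPKM in the 5 naive libraries and 158, 143, 173, 198 and 176 FPKM in the 5 Resist libraries. The ranges overlapped almost wholly. The means were 162 ± 14.3 and 169 ± 20.9 FPKM (SD, n = 5 each), a log2 difference of 0.06 (SE 0.09, 95% interval from -0.13 to 0.26, limma adjusted p = 0.656). Among the 13850 genes listed in all tables, the percentile of Myc was 96.1 to 97 in naive libraries and 96.3 to 97.5 in Resist libraries.

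The macrophage-depleted groups differed widely from each other in Myc. Resist-Mac libraries gave 117, 86.5, 111, 184 and 194 FPKM, so that 3 lay below every naive and Resist library and 2 lay within the upper part of the Resist range. Naive-Mac libraries gave 9.48, 7.63, 5.82, 10.1 and 6.49 FPKM, and the highest of them was far below the lowest library of any other group. Its percentile was 91.8 to 96.4 in Resist-Mac and 55 to 68.3 in Naive-Mac libraries.

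**Figure D1:**
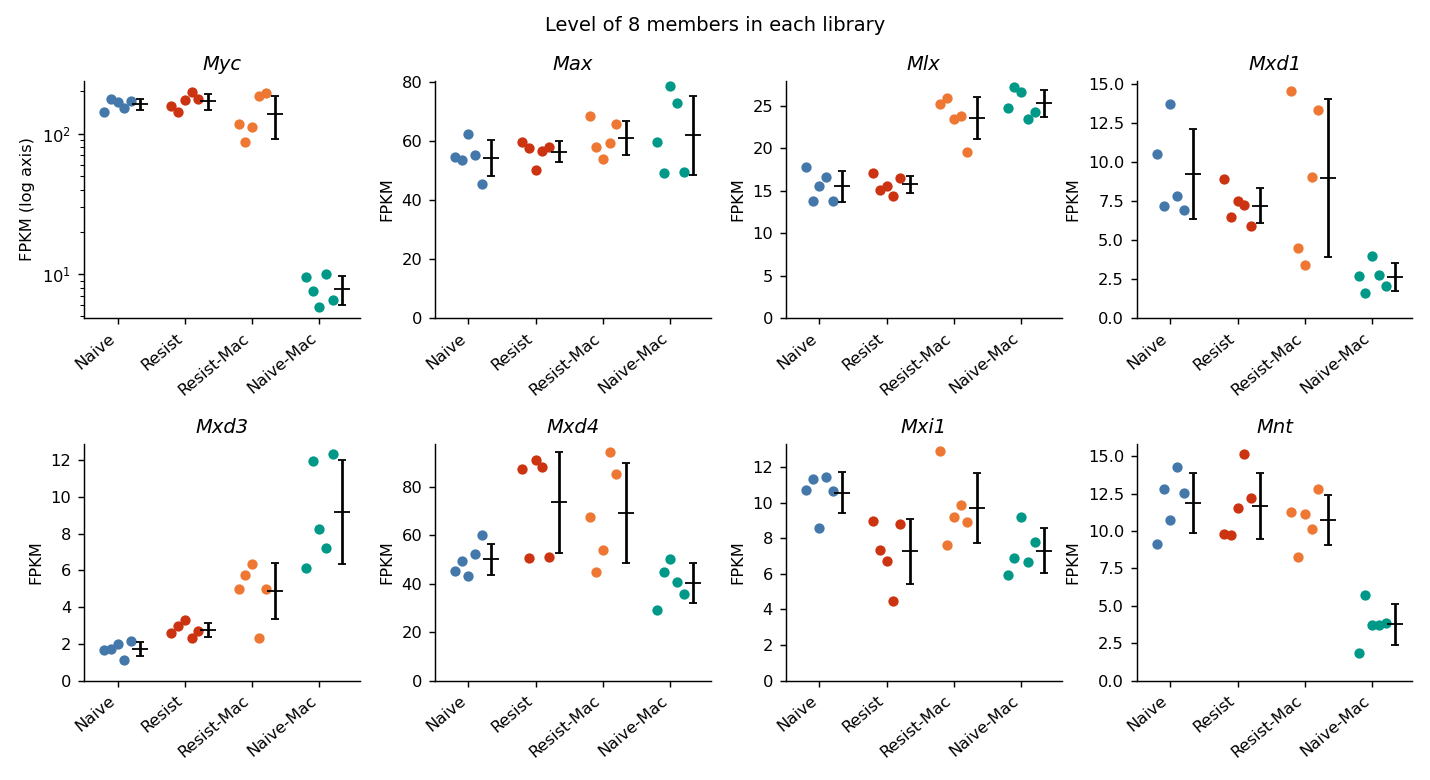
FPKM (vertical axes, logarithmic for Myc) of the 8 members tested in each of the 5 libraries of the 4 groups (points), with the mean and SD at the right of each group. Myc lies between 86.5 and 198 FPKM in naive, Resist and Resist-Mac libraries and between 5.82 and 10.1 FPKM in Naive-Mac libraries, and Max overlaps between all groups.

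The test of Resist vs. Resist-Mac, which asks how macrophage depletion moves tumor cell RNA under enzalutamide, did not call Myc (log2 difference 0.35, SE 0.20, 95% interval from -0.09 to 0.78, limma adjusted p = 0.182). The background of that comparison was 21.7% of genes called, made up of 9.71% with more and 12% with less RNA in Resist. Without the 3 Resist-Mac libraries richest in neutrophil RNA, described with Mxd1, the remaining ones were replicates 2 and 3 at 86.5 and 111 FPKM, and Myc was called higher in Resist (0.78, limma adjusted p = 0.00223). The deposited names of replicates 2 and 3 share a prefix that no other Resist-Mac library has. That naming set and low neutrophil RNA cannot be told apart. Quantile normalization of all 10 libraries also called Myc (0.72, limma adjusted p = 0.0159). Naive vs. Naive-Mac, the same question without the drug, gave a log2 difference of 4.21 for Myc (SE 0.13, limma adjusted p = 3.06e-11), the 11th highest of 9837 genes. The background was large, since 59.7% of the genes tested were called there, made up of 37.5% with more and 22.1% with less RNA in naive tumors. Resist-Mac vs. Naive-Mac, the drug comparison under depletion, gave 3.93 for Myc (SE 0.22, limma adjusted p = 9.67e-08), the 2nd highest of 9760 genes, against a background of 46.2% called, made up of 37.2% with more and 9% with less RNA in Resist-Mac. Across the alternative settings the Myc difference ranged from 3.91 to 4.36 and from 3.49 to 4.13 in these comparisons. Naive-Mac libraries form a batch of their own, so the low Myc level of depleted naive tumors and that batch cannot be told apart. Within Naive-Mac, the library with the least neutrophil marker RNA, replicate 2, had 7.63 FPKM of Myc and that with the most, replicate 3, had 5.82 FPKM.

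Mycn and Mycl, the paralogs of Myc that are best known from neural and lung tumors, were at or near 0. Mycn was listed at 0 in all 5 naive libraries and at 0.03 FPKM in replicates 3 and 4 of Resist, and it was not listed in the other tables. Mycl was at 0.03 FPKM in 1 naive library, at 0.05 FPKM in 1 Resist library, at 0.03 and 0.05 FPKM in replicates 4 and 5 of Resist-Mac, and at 0 in all Naive-Mac libraries. Neither passed the filter on low values. With so few values above 0, no permutation test could pass for either gene, and none is given.

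Max, the common partner, was the steadiest member. Its levels ran from 45.5 to 62.4 FPKM in naive, 50.2 to 59.4 in Resist, 53.9 to 68.3 in Resist-Mac and 49.1 to 78.6 in Naive-Mac libraries, and all ranges overlapped. It was not called in any of the 4 comparisons, with log2 differences between -0.17 and 0.06. Its place among the 13850 shared genes was between the percentiles 86.7 and 90.6 in all 20 libraries. The median-ratio scaling divides each library by its median ratio to the geometric means of the genes. It put Max lower by 0.48 in naive than in Naive-Mac tumors (limma adjusted p = 0.00411). The length and GC correction turned the sign to 0.28 higher (limma adjusted p = 0.0602).

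With Max alike in all groups, the ratio of Myc to Max went with the Myc level. The ratio uses the mouse Myc gene, and the human transgene was not analysed. Per kilobase, the Myc level divided by the Max level had a median of 2.75 in naive (range 2.6 to 3.74), 3.04 in Resist (2.48 to 3.51) and 2.06 in Resist-Mac libraries (1.49 to 3.11). In Naive-Mac libraries it was 0.138 (0.074 to 0.159). Myc RNA exceeded Max RNA in every library of the first 3 groups and was below it in every Naive-Mac library.

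Among the antagonists, Mxd4 carried most of the RNA. Its share of the summed FPKM of Mxd1, Mxd3, Mxd4, Mxi1 and Mnt had a median of 60% in naive, 74.4% in Resist, 64.3% in Resist-Mac and 63.8% in Naive-Mac libraries. Mxd4 gave 45.4, 49.5, 43.3, 52.3 and 60 FPKM in naive libraries. In Resist it gave 87.6, 50.5, 91.1, 88.2 and 51.2 FPKM. Resist libraries thus fell in 2 sets, with replicates 2 and 5 inside the naive range and the other 3 above it. The log2 difference was 0.51 (SE 0.18, 95% interval from 0.13 to 0.89, limma adjusted p = 0.0625) and was not called. Without replicate 2 or without replicate 5 of Resist it was 0.63 or 0.62 and was called (adjusted p = 0.0211 and 0.0165).

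Mxd4 also spread widely in Resist-Mac, at 67.6, 44.8, 54, 94.5 and 85.3 FPKM, and lay lower in Naive-Mac at 29.2, 44.9, 50.5, 40.8 and 35.8 FPKM. It was called in Resist-Mac vs. Naive-Mac (log2 difference 0.74, SE 0.20, limma adjusted p = 0.00599), where the ranges still overlapped. The call was lost with median-ratio scaling (0.29, adjusted p = 0.117), with the length and GC correction (-0.04, adjusted p = 0.821) and when the libraries rich in neutrophil RNA were left out (0.29, adjusted p = 0.219).

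Mxd3, which is known from proliferating progenitors, was the only member to separate naive from Resist libraries completely. It was low in both, at 1.64, 1.7, 1.97, 1.1 and 2.15 FPKM in naive and 2.57, 2.97, 3.31, 2.3 and 2.7 FPKM in Resist libraries. The lowest Resist library was just above the highest naive library. The share of all genes that separate groups completely was not worked out, for this or any other comparison. In limma, 18.9% of all genes passed an adjusted p under 0.05 here at any fold. The ratio of the Mxd3 means was 1.62, and the log2 difference was 0.48 (SE 0.13, 95% interval from 0.21 to 0.76, limma adjusted p = 0.0207), below the fold limit on the log2(FPKM + 1) scale. With a pseudocount of 0.1 in place of 1 it was 0.68 and was called (adjusted p = 0.0236), as the only member called with that setting. With quantile normalization (0.31, adjusted p = 0.124) and with all groups in one fit (0.48, adjusted p = 0.126) it did not pass the p limit.

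Mxd3 was higher still in the depleted groups. Resist-Mac libraries gave 5.01, 5.73, 6.34, 2.33 and 4.99 FPKM, and Naive-Mac libraries 6.13, 12, 8.26, 7.24 and 12.3 FPKM. All Naive-Mac libraries were above all naive libraries. It was called lower in Resist than in Resist-Mac (-0.60, SE 0.19, limma adjusted p = 0.0255), lower in naive than in Naive-Mac (-1.88, SE 0.18, adjusted p = 6.39e-07) and lower in Resist-Mac than in Naive-Mac (-0.80, SE 0.24, adjusted p = 0.00985). The first of these calls was lost without any 1 of Resist replicates 1 and 4 and Resist-Mac replicates 1, 2 and 3, at an adjusted p of 0.0507 to 0.0635, and without Resist-Mac replicate 5 it fell just short of the fold limit (-0.58, adjusted p = 0.0468). It was also lost with the length and GC correction (-0.26, adjusted p = 0.387). Mxd3 shares 4.43% of its exon bases with Prelid1 on the other strand, which averaged 434, 361, 459 and 615 FPKM in naive, Resist, Resist-Mac and Naive-Mac tumors. The sources used here do not state whether the counting used strand, so reads of the pair may not be separable.

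Mxi1, an antagonist also known as Mxd2, had the lowest log2 difference of the members in Resist vs. Naive. It measured 10.7, 11.3, 8.57, 11.4 and 10.7 FPKM in naive and 8.94, 7.31, 6.74, 4.45 and 8.82 FPKM in Resist libraries. Replicate 3 of naive lay among the upper Resist libraries, and the other 4 naive libraries were above all of Resist. The log2 difference was -0.51 (SE 0.15, 95% interval from -0.84 to -0.18, limma adjusted p = 0.0342), which misses the fold limit. It was called, at a larger size, with quantile normalization, with the length and GC correction and without Resist replicate 1 (-0.59, adjusted p = 0.0252).

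Mxi1 was 7.59 to 12.9 FPKM in Resist-Mac and 5.91 to 9.21 FPKM in Naive-Mac libraries, and neither depletion comparison called it (log2 differences -0.39 and 0.49, limma adjusted p = 0.0926 and 0.00288). With the length and GC correction Mxi1 was called in the first and was then the only member called there (-0.60, limma adjusted p = 0.0338), and the second turned to -0.41 (adjusted p = 0.00324). Mxi1 has a processed pseudogene, Gm13735, with 90.8% identity, so part of its reads may be shared.

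Mxd1, which is known to rise when myeloid and epithelial cells differentiate, was low and variable. It gave 10.5, 7.19, 13.7, 7.8 and 6.94 FPKM in naive and 8.9, 6.45, 7.53, 7.25 and 5.91 FPKM in Resist libraries, a log2 difference of -0.29 (SE 0.17, 95% interval from -0.65 to 0.07, limma adjusted p = 0.239). Resist-Mac libraries gave 14.6, 4.51, 3.37, 9.06 and 13.4 FPKM. Naive-Mac libraries gave 2.66, 1.61, 3.97, 2.76 and 2.04 FPKM, below every naive library. It was called higher in naive than in Naive-Mac (1.5, SE 0.20, limma adjusted p = 1.4e-05) and in Resist-Mac than in Naive-Mac (1.33, SE 0.33, adjusted p = 0.00343).

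The spread of Mxd1 in Resist-Mac ran with RNA of another cell type. The summed FPKM of 11 neutrophil markers, which include S100a8, S100a9 and Elane, was 8796.8, 999.9, 407.1, 2473.7 and 4898.7 in the 5 Resist-Mac libraries, and their order is that of Mxd1. In Naive-Mac libraries the sums were 4882.5, 59, 6169.1, 3872.2 and 761.9, and the library with the least had the least Mxd1 and that with the most had the most. Naive libraries held 176.7 to 1275.5 and Resist libraries 61.8 to 605.9, and in neither group did Mxd1 follow the order of the sums. The highest Mxd1 of naive libraries was in replicate 3, with a sum of 194.0, and that of Resist libraries in replicate 1, with 76.0. Without the 3 Resist-Mac libraries that exceeded 2000, a limit chosen after seeing the data, Mxd1 was 0.73 higher in Resist than in Resist-Mac (limma adjusted p = 0.00636), in place of 0.12 lower. The Resist-Mac libraries left in share a prefix of their deposited names found on no other library. That naming set and low neutrophil RNA cannot be told apart. The part of neutrophil RNA in the Mxd1 levels was not tested further. In bulk RNA, fewer cells of a type and less RNA per cell cannot be told apart.

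**Figure D2:**
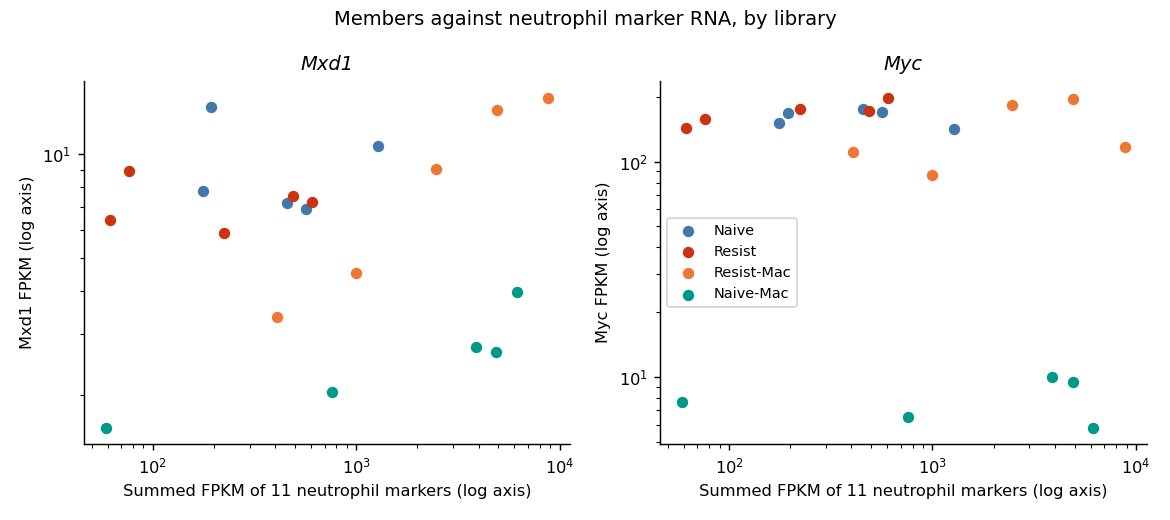
FPKM of Mxd1 (left) and Myc (right) against the summed FPKM of 11 neutrophil markers in each of the 20 libraries (points, colored by group, all axes logarithmic). Within Resist-Mac, Mxd1 rises from 3.37 to 14.6 FPKM in the order of the marker sum, and Naive-Mac libraries keep the lowest Myc at every marker level.

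Mnt, an antagonist found in most cells whether they divide or rest, did not differ between naive and Resist. The levels were 9.1 to 14.3 FPKM in naive, 9.74 to 15.2 in Resist and 8.27 to 12.8 in Resist-Mac libraries, with a log2 difference of -0.02 in Resist vs. Naive (SE 0.13, 95% interval from -0.31 to 0.26, limma adjusted p = 0.919). Naive-Mac libraries gave 1.82, 5.71, 3.7, 3.74 and 3.88 FPKM. The highest of these was below every library of the other groups. The share of all genes without overlap was not worked out. Of all genes tested, 59.7% were called in Naive vs. Naive-Mac and 46.2% in Resist-Mac vs. Naive-Mac. Mnt was called in Naive vs. Naive-Mac (1.47, SE 0.20, limma adjusted p = 1.29e-05) and in Resist-Mac vs. Naive-Mac (1.34, SE 0.21, adjusted p = 9.63e-05).

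Several of these depletion values changed when transcript length and GC content were corrected together. The transcripts of Mxd1, Mnt, Mxi1 and Mxd4 are 4590 to 5036 bases long, and their log2 differences in Naive vs. Naive-Mac, 0.32 to 1.5, were all above 0. Mxd3 and Mlx, at 1742 and 1965 bases, had differences of -1.88 and -0.68, and Myc, at 2338 bases, one of 4.21. After a correction for length and GC content in each library, Mnt and Mxd1 lost their calls in Naive vs. Naive-Mac (0.29 and 0.54, limma adjusted p = 0.0626 and 0.029) and Mlx lost its own (-0.28, adjusted p = 0.0104). Mxd4 was called in the other direction (-0.59, adjusted p = 0.000206). Only Myc (4.30, adjusted p = 1.99e-10) and Mxd3 (-1.52, adjusted p = 1.2e-05) kept both call and direction. In Resist-Mac vs. Naive-Mac, Mnt (0.25, limma adjusted p = 0.143) and Mxd1 (0.52, adjusted p = 0.185) lost their calls with this correction as well. The parts of length and GC content were not tested apart.

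**Figure D3:**
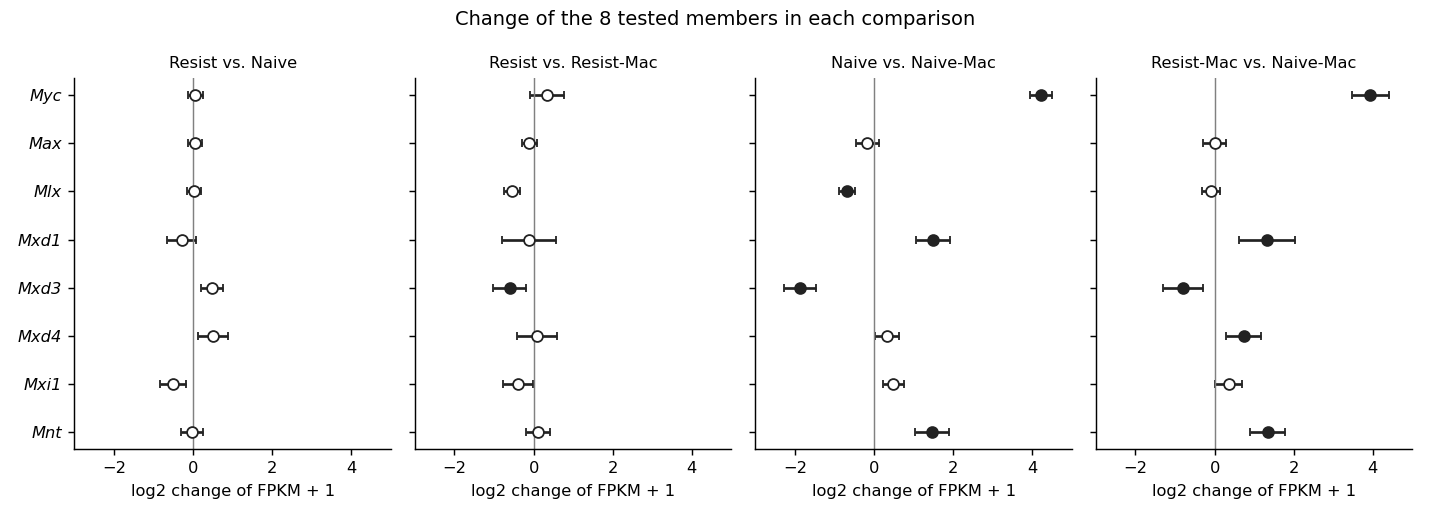
Differences of log2(FPKM + 1) for the 8 members tested in the 4 comparisons (points, first-named group minus second, with 95% intervals from limma). Filled points are called members, which number 0, 1, 5 and 5 of 8 from left to right. Of all genes tested, 6.35%, 21.7%, 59.7% and 46.2% were called in the same order. Myc stands out at 4.21 and 3.93 in the comparisons with Naive-Mac.

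Mlx levels were close in naive and Resist tumors and higher in all libraries of both depleted groups. It measured 13.8 to 17.8 FPKM in naive and 14.4 to 17.1 FPKM in Resist libraries (log2 difference 0.02, SE 0.08, 95% interval from -0.16 to 0.20, limma adjusted p = 0.862). Resist-Mac libraries gave 25.3, 26, 23.5, 23.8 and 19.6 FPKM and Naive-Mac libraries 24.8, 27.3, 26.7, 23.5 and 24.3 FPKM, all above every library of the groups with macrophages. The share of all genes without overlap between these batches was not worked out. Of all genes tested, 21.7% were called in Resist vs. Resist-Mac and 59.7% in Naive vs. Naive-Mac. Resist vs. Resist-Mac gave -0.55 (SE 0.09, limma adjusted p = 0.000729), which is under the fold limit (-0.62 and called without the libraries rich in neutrophil RNA, and likewise without Resist-Mac replicate 5 alone, but -0.25 at an adjusted p of 0.0698 with the length and GC correction), and Naive vs. Naive-Mac gave -0.68 (SE 0.10, adjusted p = 2.06e-05), which is called. Mlx shares 19.3% of its exon bases with Psmc3ip on the other strand. Psmc3ip averaged 16.4, 15.4, 24.7 and 44.5 FPKM in naive, Resist, Resist-Mac and Naive-Mac tumors, so the overlapping gene was higher in the same groups, and its part in the Mlx level was not tested.

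The partners of Mlx and Max outside the 10 genes were few. Mlxip, the Mondo protein that pairs with Mlx, averaged 11.5 ± 0.75 FPKM in naive and 11.6 ± 0.76 in Resist tumors (SD, n = 5 each), 8.46 ± 1.83 in Resist-Mac and 1.98 ± 0.633 in Naive-Mac tumors. It was called in Naive vs. Naive-Mac (2.10, SE 0.16, limma adjusted p = 4.65e-08) and in Resist-Mac vs. Naive-Mac (1.68, SE 0.20, adjusted p = 1.22e-05), and neither call held after the length and GC correction. Mga, a large Max partner, did not exceed 0.44 FPKM in any library, and Mlxipl was not listed. Of the 2 genes taken as targets of Mlx and Mondo dimers, Txnip, a brake on glucose uptake, averaged 227 FPKM in naive, 159 in Resist, 139 in Resist-Mac and 121 in Naive-Mac tumors. The log2 difference of Resist from naive tumors was -0.53 (SE 0.15, limma adjusted p = 0.0269), which misses the fold limit, and it was called higher in naive than in Naive-Mac tumors (0.90, SE 0.14, adjusted p = 5.92e-05). Arrdc4 was called in Resist vs. Resist-Mac only (-1.17, SE 0.31, limma adjusted p = 0.0097).

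The lists of genes that Myc is known to activate had medians below that of all genes in Resist vs. Naive, and 1 of their genes was called. Over all genes tested there, 6.35% were called, made up of 5.25% with more and 1.11% with less RNA in Resist. For lists of this size, counts of 0 or 1 are near that background. The share of all genes with a difference above 0 was not worked out. Of 35 ribosome biogenesis genes, 0 were called in Resist vs. Naive, 3 had a log2 difference above 0, and the median was -0.17 beside 0.03 over all genes. Of 19 genes of nucleotide, polyamine and other metabolism, 0 were called, with a median of -0.26. Of 8 chaperone, translation and mitochondrial genes, 0 were called, with a median of -0.23, and 0 lay above 0. Of 7 cell cycle genes tested, 1 was called lower and the median was -0.23. The 8 tested genes that Myc is known to repress had 0 calls and a median of 0.00. Proliferation markers had 0 of 12 called and a median of -0.21, and their summed level was 294 to 370 FPKM in naive and 241 to 341 FPKM in Resist libraries.

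**Figure D4:**
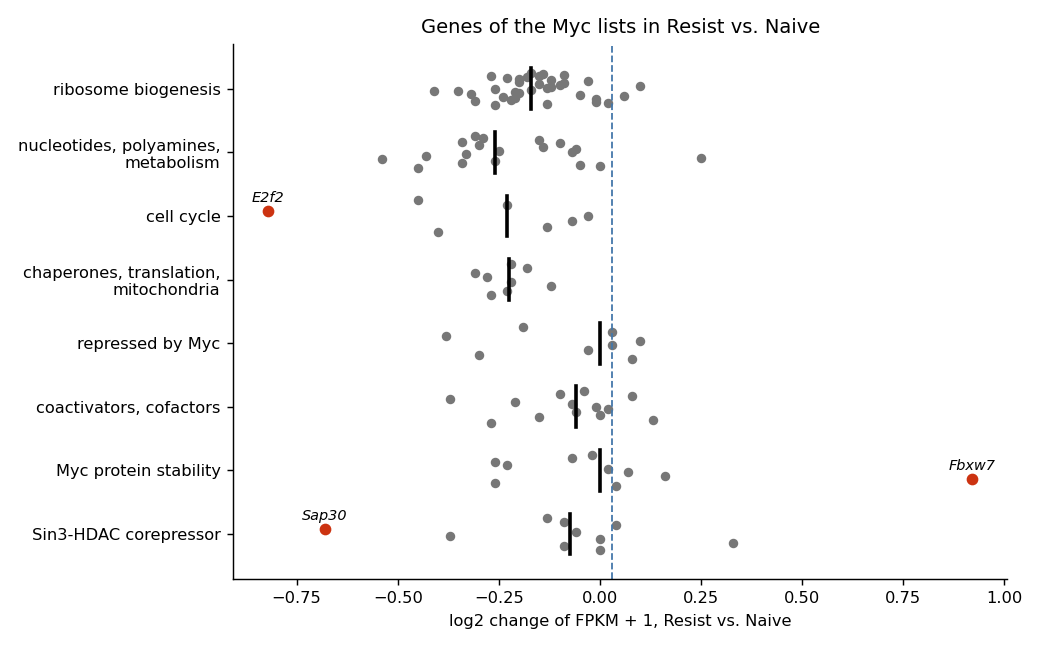
Differences of log2(FPKM + 1) in Resist vs. Naive for each tested gene of 8 lists tied to Myc (points, red where called and named), with the list median as a black bar and the median of all genes, 0.03, as a dashed line. The 4 lists of genes activated by Myc have medians of -0.17 to -0.26, and the 3 called genes are E2f2, Fbxw7 and Sap30. Over all genes tested, 6.35% were called.

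The cell cycle gene called was E2f2, a transcription factor that promotes entry into S phase. It measured 12.1, 10.5, 11.1, 12.6 and 10.8 FPKM in naive and 8.13, 4.28, 5.24, 5.54 and 7.75 FPKM in Resist libraries, without overlap, a log2 difference of -0.82 (SE 0.14, limma adjusted p = 0.00242). E2f2 did not differ in the test of Resist vs. Resist-Mac (-0.26, SE 0.20, limma adjusted p = 0.309). The share of all genes without overlap in Resist vs. Naive was not worked out, and 6.35% of those tested were called there.

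Of 10 genes that control the stability of the Myc protein, 1 was called in Resist vs. Naive, beside 6.35% of all genes tested. Fbxw7, the ubiquitin ligase subunit that marks phosphorylated Myc for degradation, measured 6.68, 5.79, 6.04, 5.05 and 5.59 FPKM in naive libraries. In Resist it measured 12.2, 12.4, 11.5, 14.5 and 9.51 FPKM, and every Resist library was above every naive one. The log2 difference was 0.92 (SE 0.10, limma adjusted p = 0.000228). Resist-Mac tumors kept a similar mean (10.3 ± 2.04 FPKM, SD, n = 5), with a log2 difference of 0.20 from Resist (SE 0.14, adjusted p = 0.253). In Naive-Mac tumors Fbxw7 averaged 0.902 ± 0.181 FPKM (SD, n = 5), the lowest of the 4 groups.

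The corepressor and coactivator lists held 1 call between them in Resist vs. Naive, where 6.35% of all genes tested were called. Of 10 Sin3 and histone deacetylase genes, 1 was called in Resist vs. Naive: Sap30, a Sin3 complex subunit, fell from 96.5 ± 14.7 to 59.7 ± 9.82 FPKM (SD, n = 5 each), with overlap of 1 library on each side (log2 difference -0.68, SE 0.12, limma adjusted p = 0.00313). Sap30 was called higher in Resist-Mac than in Resist (108 ± 9.7 FPKM, adjusted p = 0.000123) and highest in Naive-Mac tumors (218 ± 41.3 FPKM). Of 13 coactivators and cofactors of Myc, 0 were called in Resist vs. Naive, with a median of -0.06.

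**Figure D5:**
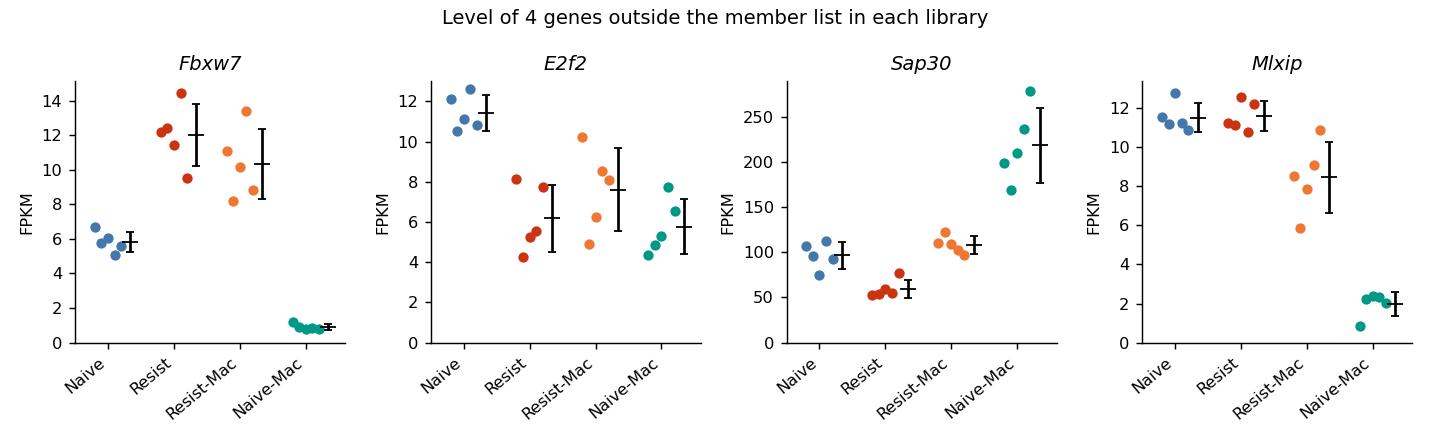
FPKM of Fbxw7, E2f2, Sap30 and Mlxip in each library of the 4 groups (points), with the mean and SD at the right of each group. Fbxw7 is higher in all Resist than in all naive libraries and lowest in Naive-Mac, and Sap30 is highest in Naive-Mac.

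In the depletion comparisons the lists of Myc-activated genes held calls in both directions. In Naive vs. Naive-Mac the mouse Myc gene differed by 20.5-fold, and the human transgene was not analysed. Naive tumors had 10 ribosome biogenesis genes called above and 9 called below Naive-Mac, with a median of 0.16 beside 0.23 over all genes. After the length and GC correction these counts became 8 and 8, with a median of -0.08. Of the metabolic genes 3 were called higher and 4 lower (median -0.09), of the cell cycle genes 3 and 1 (median -0.16), and of the chaperone, translation and mitochondrial genes 1 and 6 (median -0.89). Of the 7 tested genes repressed by Myc, 0 were called above and 2 below Naive-Mac in naive tumors. In Resist-Mac vs. Naive-Mac the ribosome biogenesis list had 10 called higher and 4 lower, with a median of 0.22 beside 0.34, which became 6 and 7 with a median of -0.14 after the length and GC correction. In Resist vs. Resist-Mac it had 1 and 5, with a median of -0.20 beside -0.02, and 5 of the 8 chaperone, translation and mitochondrial genes were called lower in Resist (2 of 8 after that correction). These medians shift with scaling: median-ratio scaling moved the median of all genes from 0.23 to -0.05 in Naive vs. Naive-Mac and from 0.34 to -0.05 in Resist-Mac vs. Naive-Mac. The calls over all genes moved from 3691 higher and 2177 lower to 2857 and 3073 in the first, and from 3631 and 878 to 2152 and 2292 in the second.

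The change with enzalutamide resistance was compared between tumors with and without macrophage depletion by an interaction in limma over all 20 libraries. Of the 8 members, 5 passed an adjusted p under 0.05, beside 51.9% of all 9876 genes tested. The differences, Resist vs. Naive minus Resist-Mac vs. Naive-Mac, were -3.87 for Myc (SE 0.25, limma adjusted p = 5.74e-10), -1.62 for Mxd1 (SE 0.40, adjusted p = 0.00191), -1.36 for Mnt (SE 0.25, adjusted p = 0.00013), -0.87 for Mxi1 (SE 0.22, adjusted p = 0.00223) and 1.28 for Mxd3 (SE 0.28, adjusted p = 0.000623). Max, Mxd4 and Mlx did not pass, but with median-ratio scaling Max (0.42, limma adjusted p = 0.0353) and Mlx (0.48, adjusted p = 0.0148) did. After the length and GC correction Myc and Mxd3 passed, and without the libraries rich in neutrophil RNA all of the 5 but Mxi1 did (adjusted p = 0.0524). The batches enter this contrast unevenly, and their part cannot be told apart from that of depletion.

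Across the 10 naive and Resist libraries, the genes whose log2(FPKM + 1) was most like that of Myc were Lrrc51 (Pearson r = 0.91), Ercc6 (0.91), Cpne7 (0.90), Armc5 (0.89) and Usp21 (0.88). Among the members the highest r with Myc was that of Mnt (0.69) and the lowest that of Mlx (-0.57). These are descriptions over 10 libraries of 1 batch, without a test, and the highest values out of all genes tested are high by selection.

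The sorted cells matched their label in part. Among the prostate epithelium markers, Krt8 averaged 317, 190, 107 and 196 FPKM in naive, Resist, Resist-Mac and Naive-Mac tumors. Krt18 and Cdh1 did not exceed a mean of 0.106 FPKM in any group, and Epcam was not listed outside Naive-Mac, where it averaged 0.01 FPKM. The pan-leukocyte gene Ptprc, whose product was gated out, averaged 0.542 to 2.61 FPKM. Summed macrophage and monocyte markers were 16.9 to 100 FPKM in naive, 4.03 to 54.5 in Resist, 36 to 813 in Resist-Mac and 4.75 to 524 in Naive-Mac libraries, and erythroid markers were 54.1 to 108, 107 to 200, 131 to 310 and 214 to 954. Their part in the members' levels, other than the comparison without neutrophil-rich libraries, was not tested.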

How the data were processed

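RNA of sorted tumor cells was sequenced on a BGISEQ-500 with paired ends. The submitters' processing notes name Bowtie2 and mm9, and the quantification tool and gene annotation are not given in the sources used here. The authors deposited FPKM of each gene in every library as 3 separate tables. That of the naive and Resist libraries was deposited as log2 of FPKM + 1 and was unlogged. No read counts accompany them, so depth is unknown and no counting error is given. The authors' BGI_novel genes (752, 8.45% of FPKM in that table) were removed, and genes were named by Entrez identifier with a RefSeq table, which matched 16613, 14053 and 15827 identifiers in the naive and Resist, Resist-Mac and Naive-Mac tables.

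Each comparison used the 10 libraries of its groups and genes listed for both with a mean of at least 1 FPKM. limma 3.58.1 (R 4.3.3, trended prior variance, pseudocount 1 FPKM) was used, with Benjamini-Hochberg adjustment over all genes tested. On simulated data it recovered 96.5% to 99.5% of 200 genes changed by 2 on the log2 scale, with 3 to 8 false calls. Changes near the fold limit, batches and length or GC trends were not simulated. These rates therefore do not apply to the smaller member differences in Resist vs. Naive or to comparisons across batches. The members and the 17 gene lists were chosen with earlier results of these data known. Named were all members, list genes called in Resist vs. Naive, at most 3 per direction, lists of up to 3 genes, and the 5 genes most like Myc. Psmc3ip, Prelid1, Krt8, Krt18, Cdh1, Epcam and Ptprc were named as checks. Alternatives were a pseudocount of 0.1, no filter, a mean of at least 5 FPKM, median-ratio scaling, quantile normalization, a length and GC correction (spline with 4 degrees of freedom per library, GENCODE transcripts), no trend, all groups in one fit, the replicate block, a noise-distribution probability over 0.8 after NOISeq and leaving out each library. Leaving out libraries with over 2000 FPKM of neutrophil markers (3 Resist-Mac, 3 Naive-Mac) was added after seeing the data. The Resist-Mac libraries left in share a prefix of their deposited names, so this setting also selects by naming set. A processed pseudogene counted as close where minimap2 2.31 aligned 80% or more of it to a member with 90% or more identity. Python 3.11.15, numpy 2.4.6, pandas 2.3.3, scipy 1.17.1 and matplotlib 3.10.9 were used. The result of 1 marker gene is not reported here. Columns of the authors' own comparisons were not used.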

Additional observations from a re-analysis of the deposited data

Results flagged for a closer look

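In 36 groups of 5 libraries, Dixon's test marked 3 libraries as far from the others, where chance gives about 1.8. Mycl was at 0.03 FPKM in naive replicate 2 and at 0.05 FPKM in Resist replicate 5 with the other 4 libraries at 0, and Mxi1 was at 8.57 FPKM in naive replicate 3, below the 10.7 to 11.4 FPKM of the other 4. Any single value above 0 beside 4 zeros gives the Dixon ratio of 1.00 found for Mycl. The count of 3 therefore cannot be compared with 1.8. The ratio for Mxi1 was 0.73.

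The difference between groups in the change with resistance, tested by the limma interaction over 20 libraries, was -3.87 for Myc, -1.62 for Mxd1, 1.28 for Mxd3, -0.87 for Mxi1 and -1.36 for Mnt on the log2 scale. Naive-Mac libraries are a batch of their own, and batch and condition cannot be told apart in this test.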

How the results depend on the processing

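Of 8 members, the number called in Resist vs. Naive was 0, and became 1 with a pseudocount of 0.1 (Mxd3), with quantile normalization (Mxi1) and with the length and GC correction (Mxi1), and 0 to 1 when single libraries were left out. In Resist vs. Resist-Mac it was 1, and became 0 with the filter at 5 FPKM and with the noise-distribution probability over 0.8, 2 with quantile normalization, 4 without the neutrophil-rich libraries, and 0 to 1 without single libraries. It stayed 1 with the length and GC correction, but the member called changed from Mxd3 to Mxi1. The 5 calls in Naive vs. Naive-Mac became 3 with the length and GC correction, and the 5 in Resist-Mac vs. Naive-Mac became 2 with it and 2 with the noise-distribution probability over 0.8. Of the 5 differences in the interaction, 2 passed with the length and GC correction. The causes of these shifts were not tested. Over all genes in the main fits, 6.35%, 21.7%, 59.7% and 46.2% were called in the 4 comparisons in this order, and 51.9% passed in the interaction.

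Differences that changed sign under the length and GC correction were, in Resist vs. Naive, Myc (-0.02) and Mlx (-0.02), in Resist vs. Resist-Mac Max (0.21), Mxd4 (-0.11) and Mnt (-0.12), in Naive vs. Naive-Mac Max (0.28), Mxd4 (-0.59) and Mxi1 (-0.41), in Resist-Mac vs. Naive-Mac Mxd4 (-0.04) and Mxi1 (-0.38), and in the interaction Max (-0.04) and Mxd4 (0.45). Under median-ratio scaling these were Mlx in Resist vs. Naive (-0.03), Mxi1 in Resist-Mac vs. Naive-Mac (-0.05) and Mxd4 in the interaction (0.13). Under quantile normalization they were Mlx in Resist vs. Naive (-0.04), Max in Resist vs. Resist-Mac (0.13), Max and Mxi1 in Naive vs. Naive-Mac (0.05 and -0.04) and Mxi1 in Resist-Mac vs. Naive-Mac (-0.23). Without the neutrophil-rich libraries they were Max and Mxd1 in Resist vs. Resist-Mac (0.01 and 0.73), Max in Naive vs. Naive-Mac (0.13), and Max and Mxd4 in the interaction (-0.12 and 0.22). Without single libraries, Mnt and Mlx ranged from -0.12 to 0.04 and from -0.01 to 0.07 in Resist vs. Naive, and Mxd1 and Mxd4 from -0.37 to 0.08 and from -0.05 to 0.22 in Resist vs. Resist-Mac.

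The replicate numbers did not pair the libraries, since same-numbered libraries correlated by -0.38 to 0.36 and at most 2 of 5 correlated best with their own number. With the replicate block the counts were 0, 1, 5 and 5 of 8, as without it. FPKM tables hold no depth, and the members below 1 FPKM were not fitted.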
